A study of Mus musculus with 12 samples.

Results

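The change that pressure overload made in the hearts of mice overexpressing CIP was compared, gene by gene, with the change it made in control hearts. CIP (cardiac ISL1-interacting protein, gene symbol Mlip) is a striated-muscle protein enriched in cardiomyocytes. Pressure overload was set up by transverse aortic constriction (TAC), a surgical narrowing of the aorta, and sham surgery served as its reference. The value described for each gene, called the interaction, is the response to TAC in CIP-OE hearts (CIP-OE-TAC minus CIP-OE-Sham) minus the response to TAC in Ctrl hearts (Ctrl-TAC minus Ctrl-Sham), on the scale of log2 of the normalized read count plus 1. A negative interaction means that the response lay lower in CIP-OE hearts, through a smaller rise or a larger fall, and a positive one that it lay higher. The interaction was fitted for 13392 genes with a normalized count of at least 10 in at least 3 of the 12 libraries, out of 53882 genes in the table.

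All mice were on the C57BL/6 strain and carried a CIP transgene at the Rosa locus behind a floxed stop. CIP-OE mice also carried the aMHC-Mer-Cre-Mer driver, a tamoxifen-activated Cre recombinase made in cardiomyocytes. Tamoxifen was given 2 weeks after surgery, and the study's methods describe this for CIP-OE mice without stating separately whether the Ctrl mice, CIP-KI-flox littermates, also received it, so the transgene, the activated Cre and possibly tamoxifen cannot be told apart in the interaction. Hearts of mice aged 4 months were taken 8 weeks after surgery, and each of the 4 groups held 3 animals with 1 RNA-seq library each. Single libraries are named by their labels, in which KI stands for CIP-OE.

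Pressure overload enlarges cardiomyocytes and switches on genes of the fetal heart, among them the natriuretic peptides, which are released by a stretched heart wall. It also activates fibroblasts to lay down collagen and other matrix, remodels the vessels and resident macrophages, and lowers the machinery of fatty acid and amino acid oxidation. An interaction between genotype and load shows which of those responses had another size in CIP-OE hearts. It can rest on a difference between genotypes in sham hearts, in TAC hearts or in both.

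The libraries held between 6990445 and 7704812 reads assigned to genes. Esr1, the estrogen receptor gene from which the Mer parts of the driver derive, was at 17.9, 62.1 and 8.48 in Ctrl-Sham, 55.4, 14.6 and 11.3 in Ctrl-TAC, 15295, 19341 and 22247 in CIP-OE-Sham and 15398, 24178 and 9528 in CIP-OE-TAC, so the lowest CIP-OE library was 153 times the highest Ctrl library. Mlip itself was at 950.2, 926 and 1322 in Ctrl-Sham, 888, 823 and 936 in Ctrl-TAC, 5492, 4596 and 1910.5 in CIP-OE-Sham and 5909, 8232 and 5921 in CIP-OE-TAC, and the lowest CIP-OE library, KI_Sham_3737, was 1.45 times the highest Ctrl library. The interaction of Mlip was 1.11 (SE 0.48, adjusted p = 0.156), with a 95% interval of 0.044 to 2.18, which did not pass. The groups also differed in a property of the libraries: the median log2 deviation of genes in the highest of 5 bins of transcript GC content minus that in the lowest was between 0.604 and 0.943 in Ctrl-TAC and between -0.562 and 0.0163 over the other 9 libraries. Reads of mitochondrial genes made up 33.9 to 43.0% in Ctrl-TAC and 41.9 to 54.0% over the other 9 libraries. The sources used here name no preparation batch, so a batch of the Ctrl-TAC libraries and the group cannot be told apart. Since the GC skew moved with Ctrl-TAC, each group of results also states which calls passed after the relation to GC content had been removed in each library ("GC-corrected").

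A gene was called at an adjusted p under 0.05 (limma, Benjamini-Hochberg over all 13392 genes) together with a difference of more than 1.5-fold. By this rule 695 genes (5.19%) had a higher response in CIP-OE hearts and 813 (6.07%) a lower one, 1508 (11.3%) in all. The response to TAC passed the same rule for 4091 genes (30.5%, or 16.8% rising and 13.7% falling) in Ctrl hearts and for 162 (1.21%, or 0.732% rising and 0.478% falling) in CIP-OE hearts. By the adjusted p alone, which is used below for counts within gene lists, the interaction passed for 11.6% of genes (5.43% higher, 6.18% lower), the Ctrl response for 40.9% (20.7% rising, 20.2% falling) and the CIP-OE response for 1.26% (0.754% rising, 0.508% falling). The size of the response was smaller in CIP-OE than in Ctrl hearts for 1467 of the 1508 called genes (97.3%) and for 10211 of all 13392 genes tested (76.2%). For genes called lower, the median response was 1.01 in Ctrl and -0.0027 in CIP-OE hearts, and for genes called higher it was -0.88 and -0.0028. After GC correction 111 genes (0.837% of 13264) were called, 42 higher (0.317%) and 69 lower (0.52%), and 93 of them were among the 1508. The TAC response then passed for 1068 rising and 863 falling genes in Ctrl hearts. In CIP-OE hearts it passed for 102 rising and 74 falling genes. The shares of genes with a smaller response were not recomputed after GC correction. A count test on recovered whole reads (edgeR) called 712 higher and 811 lower (11.4%), and 1451 of its genes were among the 1508. The counts fell to 290 higher and 417 lower without KI_TAC_3579, and a scaling by totals that leave out mitochondrial genes and the 20 most abundant ones gave 960 higher and 643 lower.

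**Figure D1:**
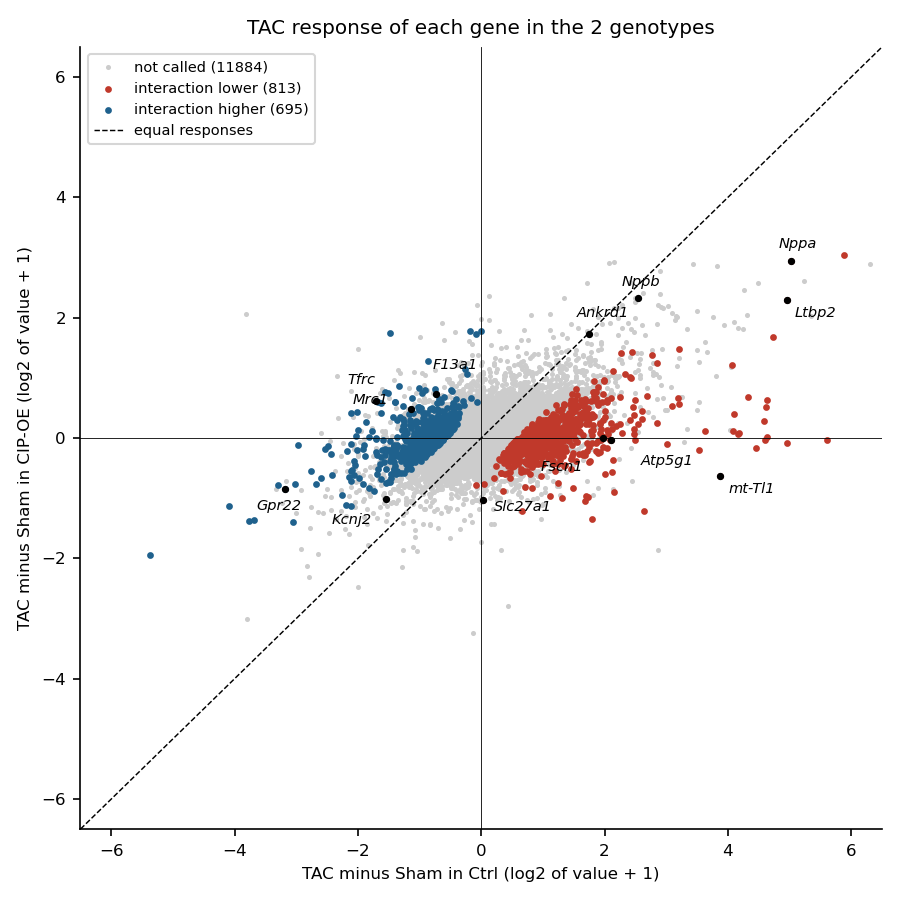
Response to TAC (TAC minus Sham, log2 of normalized count plus 1) of 13392 genes in Ctrl hearts (x axis) and in CIP-OE hearts (y axis). Each point is 1 gene, red where the interaction was called lower (813), blue where it was called higher (695) and grey otherwise (11884), and the dashed line marks equal responses. Called genes lie mostly near 0 on the y axis, while Nppb and Ankrd1 lie close to the line.

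The called genes were sorted by which of the responses to TAC passed at an adjusted p under 0.05. In 1430 of 1508 (94.8%) only the Ctrl response passed, a class that held 39.8% of all genes tested. The responses had the same sign in 721 of these and opposite signs in 709. Only the CIP-OE response passed in 9, both passed with the same sign in 34, both with opposite signs in 1, and neither in 34. The 3 Ctrl-TAC libraries lay outside the range of the other 9 libraries in 1145 of the called genes (75.9%, against 23.4% of all genes tested), the 3 Ctrl-Sham libraries in 389 (25.8%, against 6.91%), CIP-OE-Sham in 9 (1.6% of all genes tested) and CIP-OE-TAC in 14 (1.02%). The animals behind these counts are those of the contrast itself, so the counts describe the called genes and do not test them. Across the 13392 genes, the Ctrl and CIP-OE responses, which share no library, had a Spearman correlation of 0.397, and 0.460 over 13264 genes after GC correction.

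Natriuretic peptides and other genes of the stressed cardiomyocyte responded in both genotypes, some with an interaction that passed and some without. Nppa, which encodes atrial natriuretic peptide, was at 724, 776 and 617 in Ctrl-Sham, 28675, 27394 and 15143 in Ctrl-TAC, 552, 745 and 1252 in CIP-OE-Sham and 5429, 4945 and 8813 in CIP-OE-TAC normalized reads. Every TAC library was above every sham library, and the Ctrl-TAC libraries were above all CIP-OE-TAC libraries. The TAC response of Nppa was 5.02 (adjusted p = 4.6e-06) in Ctrl and 2.95 (adjusted p = 0.006) in CIP-OE hearts, an interaction of -2.07 (SE 0.49, adjusted p = 0.026). GC-corrected it was -1.68 (adjusted p = 0.146), and the call was lost when any 1 of Ctrl_Sham_4010, Ctrl_Sham_4033, Ctrl_TAC_3586, Ctrl_TAC_3800 and KI_TAC_3579 was left out, with adjusted p up to 0.072. Myl7, Myl4, Sln and Bmp10, other genes of the atria, were below the filter on low values. Gm13054, an annotated RNA antisense to Nppa, moved with it at -2.84 (SE 0.57, adjusted p = 0.016), and without a stated strand setting its reads cannot be told from those of Nppa. GC-corrected it was at -2.47 (adjusted p = 0.082). Nppb, the neighbouring gene for B-type natriuretic peptide, was at 838, 611 and 656 in Ctrl-Sham, 2343, 5188 and 5499.7 in Ctrl-TAC, 514, 298 and 836 in CIP-OE-Sham and 2180.5, 2593 and 2863 in CIP-OE-TAC. Both TAC groups were above both sham groups and overlapped each other in range. The TAC response of Nppb was 2.54 (adjusted p = 0.0012) in Ctrl and 2.32 (adjusted p = 0.039) in CIP-OE hearts, and its interaction was -0.22 (SE 0.58, adjusted p = 0.841) with a 95% interval of -1.53 to 1.09. Ankrd1, the cardiac ankyrin repeat protein that binds titin, was at 6819, 4242 and 8694 in Ctrl-Sham, 19267, 20131 and 24512 in Ctrl-TAC, 6412, 3392 and 7071 in CIP-OE-Sham and 16646, 15993 and 21072 in CIP-OE-TAC. The TAC groups again lay wholly above the sham groups, and the interaction was -0.017 (SE 0.42, adjusted p = 0.984) with an interval of -0.95 to 0.91.

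The interaction was called for Nppa and did not pass for Nppb and Ankrd1, and a difference in interaction between these genes was not tested. Their proximal promoter windows are shown here. Each is the 250 bases before the RefSeq transcription start (GRCm38.p6), Nppa at chr4:148000472-148000721, + strand, Nppb at chr4:147985650-147985899, + strand and Ankrd1 at chr19:36119845-36120094, - strand, written 5′ to 3′ on the gene's strand. Capitals mark matches on either strand to the motif AGATAA, which is bound by GATA factors, or to CATTCC, the M-CAT motif bound by TEAD factors.
Nppa: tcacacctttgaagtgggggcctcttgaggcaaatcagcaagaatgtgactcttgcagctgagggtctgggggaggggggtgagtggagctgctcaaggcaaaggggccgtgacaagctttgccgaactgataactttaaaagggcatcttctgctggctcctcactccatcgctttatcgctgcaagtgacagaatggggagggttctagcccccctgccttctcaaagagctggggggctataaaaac
Nppb: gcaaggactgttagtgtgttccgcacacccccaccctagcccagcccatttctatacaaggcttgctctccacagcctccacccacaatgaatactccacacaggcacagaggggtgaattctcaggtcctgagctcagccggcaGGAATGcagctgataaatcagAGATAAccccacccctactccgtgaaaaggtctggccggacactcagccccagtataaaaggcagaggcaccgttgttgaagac
Ankrd1: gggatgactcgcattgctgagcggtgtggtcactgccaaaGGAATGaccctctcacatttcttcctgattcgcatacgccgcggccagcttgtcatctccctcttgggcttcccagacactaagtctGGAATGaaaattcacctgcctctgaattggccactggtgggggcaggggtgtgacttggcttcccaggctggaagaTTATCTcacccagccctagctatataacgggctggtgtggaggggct
The window of Nppb held 1 match to each motif, that of Ankrd1 held 1 AGATAA and 2 M-CAT matches, and that of Nppa held neither of these exact motifs. The search took AGATAA alone, so the variant TGATAA, which the windows of Nppa and Nppb hold, was not counted. A lack of GATA sites in the Nppa window is therefore not shown. AGATAA was found in 9.99% of all 32851 RefSeq windows, in 5.79% of the 9832 of genes tested, in 5.73% of those of genes called higher and in 5.38% of those called lower. CATTCC was found in 12.6% of all windows, 10.7% of those of genes tested, 10.3% of those called higher and 9.41% of those called lower. These are matches of letters and do not show binding.

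**Figure D2:**
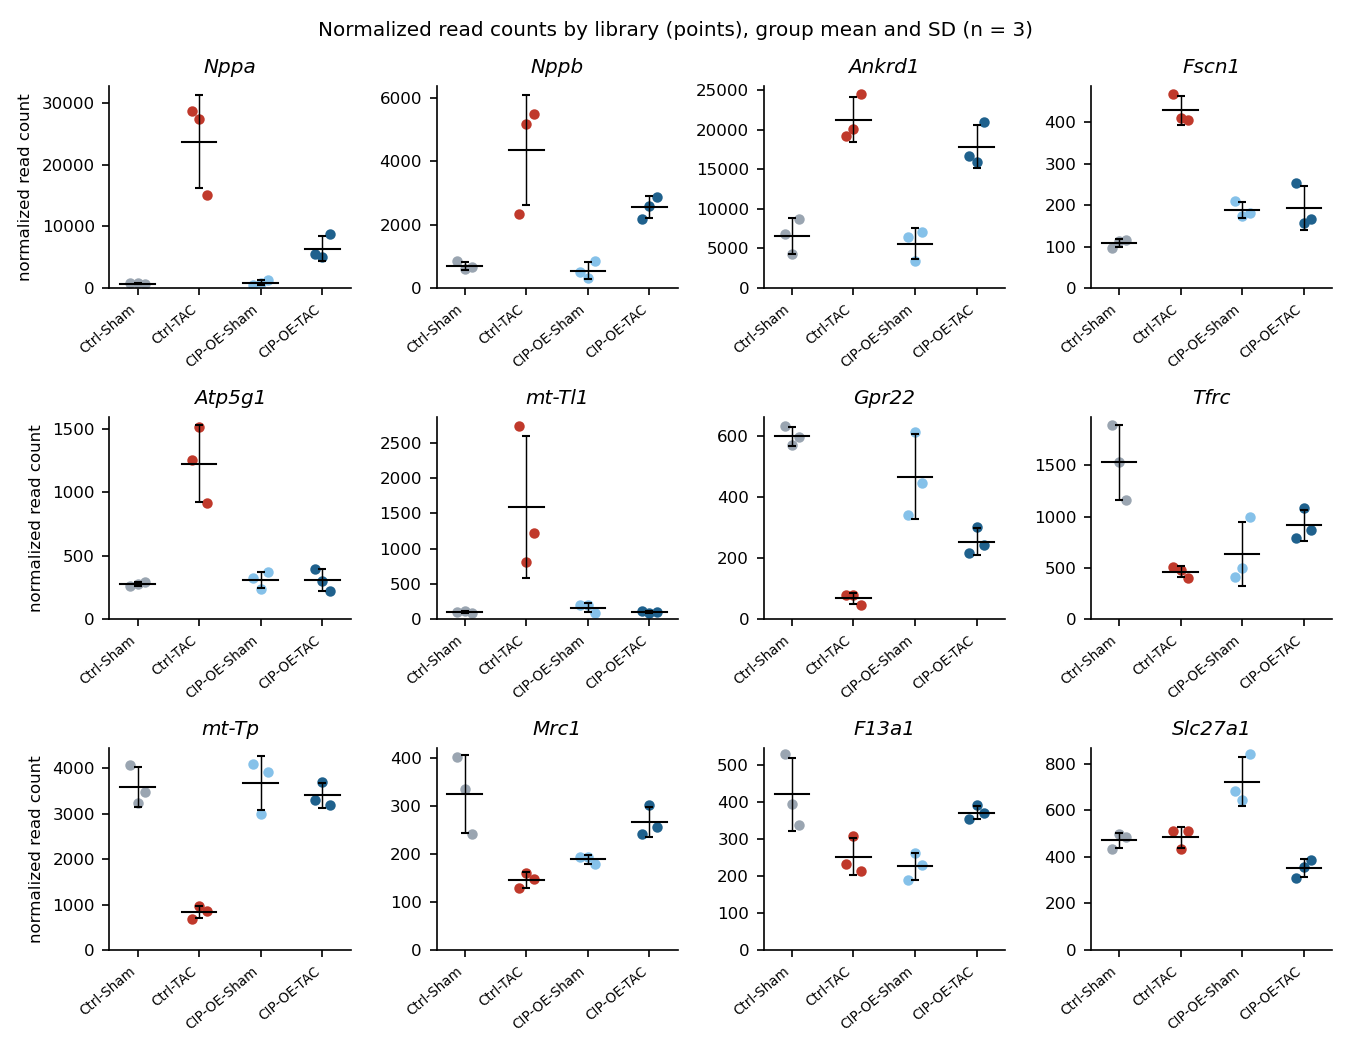
Normalized read counts of 12 genes in each library (points, linear axes from 0), 3 animals in each of the 4 groups, with the group mean (horizontal line) and SD (bars). Nppa, Fscn1, Atp5g1 and mt-Tl1 are highest in Ctrl-TAC, Gpr22 and mt-Tp are lowest there, F13a1 falls in Ctrl and rises in CIP-OE hearts, and the TAC groups of Ankrd1 overlap.

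In the 19 cardiac stress genes tested, 4 passed with a lower interaction (Nppa, Ankrd23, Sprr1a and Tnfrsf12a) and none with a higher one, at an adjusted p under 0.05, against 6.18% lower and 5.43% higher over all genes. All 19 had an interaction below 0, with a median of -0.86 against 0.00098 over all genes. The median response of the list was 2.26 in Ctrl hearts, where 19 rose, and 1.41 in CIP-OE hearts, where 6 rose. Over all genes the shares that rose were 20.7% in Ctrl and 0.754% in CIP-OE hearts. Tnfrsf12a, the receptor of the cytokine TWEAK, was at 88.4, 108 and 102 in Ctrl-Sham, 501, 742 and 847 in Ctrl-TAC, 197, 129.7 and 108 in CIP-OE-Sham and 384, 327 and 396 in CIP-OE-TAC. Its Ctrl-TAC libraries were above all others and its CIP-OE-TAC libraries were above both sham groups, an interaction of -1.38 (SE 0.29, adjusted p = 0.009). Sprr1a, a small proline-rich protein induced by stress in cardiomyocytes, had -3.05 (SE 0.89, adjusted p = 0.033), and Ankrd23, a titin-associated ankyrin protein, had -0.86 (SE 0.26, adjusted p = 0.041). Acta1, the skeletal muscle actin of the fetal heart, was at 1241, 985 and 1947 in Ctrl-Sham, 17201, 33816 and 32124 in Ctrl-TAC, 1826, 3222 and 1201 in CIP-OE-Sham and 9616, 10232 and 5130.1 in CIP-OE-TAC. The Ctrl-TAC libraries were the highest, but with -2.26 (SE 0.65, adjusted p = 0.057) the interaction did not pass. After GC correction none of the 19 passed and the median was -0.71.

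Responses shared by both genotypes went beyond these markers: 144 genes passed in both, 143 of them with the same sign. Of these, 56 moved the same way by more than 2-fold in both, 12 of them with a called interaction. The response was smaller in CIP-OE hearts for 47 of the 56, against 76.2% of all genes tested. The median absolute interaction of the 56 was 0.54. The genes named next were picked by a rule that favoured small interactions, so their values do not describe the 56. Gnao1, a G protein alpha subunit, was at 158, 152 and 182 in Ctrl-Sham, 297, 401 and 461 in Ctrl-TAC, 151, 143 and 178 in CIP-OE-Sham and 388, 352 and 366 in CIP-OE-TAC. The TAC groups did not overlap the sham groups and overlapped each other, and its interaction was 0.012 (adjusted p = 0.977) with an interval of -0.44 to 0.46. Myot, the Z-disc protein myotilin, had a TAC response of 1.38 (adjusted p = 4.6e-05) in Ctrl and 1.15 (adjusted p = 0.0071) in CIP-OE hearts. Col8a1, a short-chain collagen, had 1.38 (adjusted p = 0.00073) and 1.24 (adjusted p = 0.032). Among shared falls, Kcnj2, the inward rectifier channel that holds the resting potential, was at 544, 474 and 594 in Ctrl-Sham, 214, 165 and 170.1 in Ctrl-TAC, 775, 589 and 543 in CIP-OE-Sham and 361, 259 and 319.5 in CIP-OE-TAC. Its interaction of 0.54 (adjusted p = 0.118) did not pass. The intervals of these interactions span -0.79 to 0.35 for Myot, -0.89 to 0.61 for Col8a1 and 0.069 to 1.0 for Kcnj2, so equal responses were not shown.

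Genes of the extracellular matrix were more often lower than higher. Of 54 matrix genes tested, 13 passed with a lower interaction and 1, Ogn, with a higher one (0.82). Over all genes 6.18% passed lower and 5.43% higher. The median interaction was -0.65, with a median response of 1.36 in Ctrl and 0.54 in CIP-OE hearts, where 43 and 6 genes rose. Over all genes 20.7% rose in Ctrl hearts and 0.754% in CIP-OE hearts. Eln, which encodes elastin, was at 112, 135 and 82.7 in Ctrl-Sham, 379.6, 655 and 478 in Ctrl-TAC, 133, 258 and 128 in CIP-OE-Sham and 168, 210.0 and 189.8 in CIP-OE-TAC. The Ctrl-TAC libraries were above all others and the CIP-OE-TAC libraries lay within the CIP-OE-Sham range, an interaction of -1.97 (SE 0.39, adjusted p = 0.0093). Ltbp2, of the latent TGF-β binding proteins of the matrix, was at 26.8, 8.14 and 7.42 in Ctrl-Sham, 364, 490.3 and 353 in Ctrl-TAC, 25.9, 29.2 and 31.6 in CIP-OE-Sham and 102, 95.6 and 310.1 in CIP-OE-TAC. Both TAC groups were above both sham groups, and 1 CIP-OE-TAC library, KI_TAC_3587, came near the Ctrl-TAC values. Its interaction was -2.66 (SE 0.72, adjusted p = 0.041), a call that was kept only without Ctrl_Sham_4010 or without KI_TAC_3587, the adjusted p lying between 0.0054 and 0.096 over the fits with 1 library left out. Ltbp3 and Ltbp4, of the same family, had -1.23 (adjusted p = 0.0034) and -1.1 (adjusted p = 0.0034). Col4a2, a collagen of basement membranes, was at 947, 1037 and 811 in Ctrl-Sham, 2727, 3023 and 3434 in Ctrl-TAC, 1348, 1516 and 1111 in CIP-OE-Sham and 1714, 1795 and 1609 in CIP-OE-TAC. Hspg2, the basement membrane proteoglycan perlecan, was at 1895, 2255 and 1803 in Ctrl-Sham, 4478, 4414 and 4708 in Ctrl-TAC, 2145, 2619 and 2592 in CIP-OE-Sham and 2678, 2476 and 2208 in CIP-OE-TAC. In both genes the Ctrl-TAC libraries were above the other 9, and the interactions were -1.34 (SE 0.20, adjusted p = 0.0011) and -1.19 (SE 0.18, adjusted p = 0.0013). Prelp, a leucine-rich matrix protein named after its values were seen, was the 1 gene of this list of 54 that also passed after GC correction, at -1.43 (SE 0.23, adjusted p = 0.0018) and -1.15 (adjusted p = 0.02). Bgn, the proteoglycan biglycan, had -1.02 (adjusted p = 0.033), the call holding in 3 of 12 fits with a library left out, and Dcn, the related decorin, had -0.11 (adjusted p = 0.83). Fbn1, the microfibril protein fibrillin, had -0.98 (adjusted p = 0.147). The median of the list after GC correction was -0.34, and the calls were lost for Eln at -1.32 (adjusted p = 0.226), Ltbp2 at -2.03 (adjusted p = 0.278), Col4a2 at -0.57 (adjusted p = 0.258) and Hspg2 at -0.40 (adjusted p = 0.286).

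Mmp11, a matrix metalloproteinase, was at 169.8, 189 and 162 in Ctrl-Sham, 924, 584 and 798 in Ctrl-TAC, 239, 178 and 354 in CIP-OE-Sham and 342, 221 and 269 in CIP-OE-TAC. The Ctrl-TAC group stood alone and the CIP-OE groups overlapped, with -1.97 (SE 0.33, adjusted p = 0.0036) and a GC-corrected value of -1.49 (adjusted p = 0.019). The TGF-β pathway, which drives matrix synthesis in fibroblasts, had a median interaction of -0.40. Over all genes 6.18% passed lower and 5.43% higher. In this pathway 4 of 24 genes passed with a lower interaction and none with a higher one. They were the ligand Tgfb1 at -0.82 (adjusted p = 0.028), the activin subunit Inhbb at -2.32 (adjusted p = 0.018), the endothelial co-receptor Eng at -1.15 (adjusted p = 0.012) and the inhibitory Smad7 at -1.22 (adjusted p = 0.0054). Tgfb1 was at 105, 139 and 93.3 in Ctrl-Sham, 327, 258 and 254 in Ctrl-TAC, 116, 105 and 112 in CIP-OE-Sham and 179, 144 and 147 in CIP-OE-TAC. Its CIP-OE-TAC libraries lay between the sham groups and Ctrl-TAC, and the call was lost in 7 of 12 fits with a library left out. Smad7 was at 57.6, 56 and 50.9 in Ctrl-Sham, 177, 143 and 164 in Ctrl-TAC, 71.4, 77.8 and 56.9 in CIP-OE-Sham and 93.9, 83.4 and 78.9 in CIP-OE-TAC, with Ctrl-TAC above the other 9 libraries. The receptor Bmpr2, the most abundant member measured, had 0.35 (adjusted p = 0.286). None of the 24 passed after GC correction.

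Markers of fibroblasts and endothelial cells, whose part in the results above was not tested, were measured in the same libraries. The summed level of 14 fibroblast markers was between 9330 and 10463 in Ctrl-Sham, between 16763 and 20371 in Ctrl-TAC, between 9923 and 11996 in CIP-OE-Sham and between 12398 and 22531 in CIP-OE-TAC. Of these genes 2 passed, both lower, against 6.18% lower over all genes: Cd248, a surface protein of stromal cells, at -1.55 (SE 0.42, adjusted p = 0.031), and Col1a1, the main chain of type I collagen, at -1.35 (SE 0.39, adjusted p = 0.046). Their calls held in 6 and 3 of 12 fits with a library left out, and Gsn, the most abundant of the list with Dcn, had -0.52 (adjusted p = 0.256). In a bulk sample more cells of a type and more RNA per cell cannot be told apart. Of 18 endothelial markers, 8 passed with a lower interaction and none with a higher one, against 6.18% and 5.43% over all genes. Of these 18 markers, 17 had a value below 0, with a median of -0.63. Their summed level was between 11101 and 11209 in Ctrl-Sham, between 13189 and 18021 in Ctrl-TAC, between 11370 and 13524 in CIP-OE-Sham and between 11660 and 13721 in CIP-OE-TAC. Cdh5, the cadherin of endothelial junctions, was at 1186, 1195 and 1375 in Ctrl-Sham, 2099, 1895 and 1992 in Ctrl-TAC, 1516, 1639 and 1449 in CIP-OE-Sham and 1539.5, 1358 and 1218 in CIP-OE-TAC. Robo4, an endothelial guidance receptor, was at 177, 178 and 179 in Ctrl-Sham, 329, 310.4 and 428 in Ctrl-TAC, 255, 182 and 215 in CIP-OE-Sham and 240.2, 215 and 224 in CIP-OE-TAC. Both were highest in all Ctrl-TAC libraries, with -0.84 (SE 0.17, adjusted p = 0.0062) and -0.91 (SE 0.21, adjusted p = 0.011), while the abundant Fabp4 and Aqp1 had -0.40 (adjusted p = 0.413) and -0.15 (adjusted p = 0.797). Cldn5, the claudin of endothelial tight junctions, was at 19.9, 17.3 and 20.1 in Ctrl-Sham, 95.1, 149.9 and 125 in Ctrl-TAC, 51.7, 48.7 and 21.1 in CIP-OE-Sham and 61.1, 38.4 and 58.3 in CIP-OE-TAC. Its Ctrl-TAC libraries were above the other 9, with -2.16 (SE 0.42, adjusted p = 0.0045), or -1.4 (adjusted p = 0.195) GC-corrected. No endothelial or fibroblast marker passed after GC correction.

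Further genes with large negative interactions, taken under the naming rule, had other roles. Atp5g1, 1 of the genes for subunit c of the ATP synthase ring, was at 262, 277 and 295 in Ctrl-Sham, 1251, 1516 and 913 in Ctrl-TAC, 321, 240.0 and 368 in CIP-OE-Sham and 397, 296 and 223 in CIP-OE-TAC. The Ctrl-TAC libraries were above the other 9, which overlapped, and the interaction was -2.15 (SE 0.30, adjusted p = 0.0016) and -2.34 (adjusted p = 0.0074) GC-corrected. Atp5g2 and Atp5g3, which encode the same mature subunit, had 0.41 (adjusted p = 0.664) and -0.26 (adjusted p = 0.445). Fscn1, the actin-bundling protein fascin, was at 96.3, 114 and 116 in Ctrl-Sham, 469, 412 and 406 in Ctrl-TAC, 211, 174 and 180.3 in CIP-OE-Sham and 253, 158 and 165 in CIP-OE-TAC. The CIP-OE groups overlapped each other, lay above Ctrl-Sham and lay below Ctrl-TAC, with -1.97 (SE 0.23, adjusted p = 0.00015) and -1.2 (adjusted p = 0.015) GC-corrected. Phlda3, a p53 target that restrains Akt, was at 28.8, 15.3 and 19.1 in Ctrl-Sham, 124, 148 and 85.9 in Ctrl-TAC, 33.2, 20.5 and 20 in CIP-OE-Sham and 40.4, 22.5 and 46 in CIP-OE-TAC, with Ctrl-TAC above all other libraries and an interaction of -1.94 (SE 0.44, adjusted p = 0.0099). Habp2, a hyaluronan-binding serine protease, was at 46.7, 66.2 and 76.3 in Ctrl-Sham, 276, 249.6 and 196 in Ctrl-TAC, 94.8, 68.1 and 88.6 in CIP-OE-Sham and 134, 88.1 and 82.7 in CIP-OE-TAC. It too was highest in Ctrl-TAC, with -1.67 (SE 0.31, adjusted p = 0.0034) and -1.45 (adjusted p = 0.026) GC-corrected, but the gene overlaps Nrap, an abundant muscle gene, and the strand setting of the counting is not given. Nkx6-2, a homeobox factor known from the nervous system, was low, at 27.8, 47.8 and 13.8 in Ctrl-Sham, 152, 146 and 105 in Ctrl-TAC, 33.2, 23.8 and 51.7 in CIP-OE-Sham and 39.3, 43.1 and 29.1 in CIP-OE-TAC, with -2.19 (SE 0.52, adjusted p = 0.016). Tmem160 had -2.14 (SE 0.37, adjusted p = 0.0028). Abi3, a component of actin-regulating WAVE complexes, and Dmpk, the kinase of myotonic dystrophy, had -1.47 (SE 0.19, adjusted p = 0.00057) and -1.37 (SE 0.19, adjusted p = 0.0011). In each of them the Ctrl response alone passed, and Ctrl-TAC was above every other library. GC-corrected, Abi3 passed at -0.76 (adjusted p = 0.048), while the calls were lost for Phlda3 at -1.04 (adjusted p = 0.335), Nkx6-2 at -1.19 (adjusted p = 0.273), Tmem160 at -1.15 (adjusted p = 0.151) and Dmpk at -0.59 (adjusted p = 0.103).

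On the higher side, Gpr22, an orphan G protein coupled receptor of the myocardium, was at 633, 571 and 596 in Ctrl-Sham, 77.6, 77 and 46.9 in Ctrl-TAC, 339.9, 615 and 445 in CIP-OE-Sham and 216, 303 and 242 in CIP-OE-TAC. The Ctrl-TAC libraries were the lowest by a wide margin and the CIP-OE-TAC libraries lay below the sham libraries of both genotypes. The TAC response was -3.18 (adjusted p = 1.5e-07) in Ctrl and -0.85 (adjusted p = 0.065) in CIP-OE hearts, an interaction of 2.33 (SE 0.30, adjusted p = 0.0011), and 1.64 (adjusted p = 0.034) GC-corrected. Its promoter is shown as that of the gene with the largest positive interaction under the naming rule, for the 250 bases before the start (chr12:31713884-31714133, - strand, GRCm38.p6). The GATA and M-CAT motifs above and the PU.1 motif GAGGAA had no match in it, so no letter is capitalised. The TATA box motif TATAAA, found in 12.4% of all windows and 6.6% of those of genes tested, was also searched and is in it, left in lower case. The windows of Nppa and Nppb printed above hold TATAAA too.
Gpr22: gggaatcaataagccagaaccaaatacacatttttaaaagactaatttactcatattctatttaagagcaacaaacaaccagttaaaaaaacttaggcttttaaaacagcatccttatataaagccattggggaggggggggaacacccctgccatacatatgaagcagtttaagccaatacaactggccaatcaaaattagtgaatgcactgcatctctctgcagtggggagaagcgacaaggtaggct
At 39.6% GC the window lay below the median of 60% over the promoters of tested genes.

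Tfrc, the transferrin receptor that takes up iron, was at 1889.5, 1537 and 1159.8 in Ctrl-Sham, 511, 479 and 400.1 in Ctrl-TAC, 414, 495 and 996 in CIP-OE-Sham and 793, 1080.1 and 871 in CIP-OE-TAC. Ctrl-Sham was the highest group and Ctrl-TAC overlapped CIP-OE-Sham. Its interaction was 2.32 (SE 0.41, adjusted p = 0.0074), with a CIP-OE against Ctrl difference of -1.35 (adjusted p = 0.157) in sham hearts. Vcam1, an adhesion molecule for leukocytes, was at 253, 253 and 200.4 in Ctrl-Sham, 113, 122 and 65.1 in Ctrl-TAC, 105, 81.1 and 109.7 in CIP-OE-Sham and 122, 161 and 147 in CIP-OE-TAC. It had 1.81 (SE 0.29, adjusted p = 0.0017), a sham difference of -1.25 (adjusted p = 0.03), and again only Ctrl-Sham stood above the rest. Ppip5k2, a kinase of inositol pyrophosphates, was at 2097, 2089 and 1759.8 in Ctrl-Sham, 403, 528 and 661 in Ctrl-TAC, 1297, 843 and 816 in CIP-OE-Sham and 737, 1122 and 739.6 in CIP-OE-TAC. Ctrl-Sham was the highest and Ctrl-TAC the lowest group, with 1.74 (SE 0.30, adjusted p = 0.0041) and 1.31 (adjusted p = 0.034) GC-corrected. Angpt1, the ligand of the endothelial receptor Tie2, was at 449, 434 and 329.7 in Ctrl-Sham, 54.5, 64.8 and 29.5 in Ctrl-TAC, 223, 321 and 352 in CIP-OE-Sham and 72.1, 158 and 119 in CIP-OE-TAC. It fell in Ctrl-TAC and had CIP-OE-TAC values in between, with 1.67 (SE 0.46, adjusted p = 0.04), a call kept in 3 of 12 fits with a library left out. Il15, a cytokine of lymphocyte survival, had 1.59 (SE 0.45, adjusted p = 0.038), kept in 5 of 12. Ifi205, an interferon-inducible gene, had 2.32 (SE 0.52, adjusted p = 0.018), and Scoc, a short coiled-coil protein of the Golgi, had 1.65 (SE 0.40, adjusted p = 0.015). Lin52, of the DREAM complex that represses cell cycle genes, was at 70.5, 88.5 and 81.6 in Ctrl-Sham, 27.7, 29.2 and 42.5 in Ctrl-TAC, 35.7, 45.4 and 45.3 in CIP-OE-Sham and 48, 52.5 and 57.3 in CIP-OE-TAC, with Ctrl-Sham above every other library and 1.59 (SE 0.31, adjusted p = 0.0045). Of the genes in this paragraph Ppip5k2 alone passed after GC correction, and the calls were lost for Tfrc at 1.77 (adjusted p = 0.151), Vcam1 at 1.28 (adjusted p = 0.053), Angpt1 at 1.1 (adjusted p = 0.347), Il15 at 1.58 (adjusted p = 0.157), Ifi205 at 1.65 (adjusted p = 0.23), Scoc at 0.99 (adjusted p = 0.301) and Lin52 at 1.24 (adjusted p = 0.061).

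**Figure D3:**
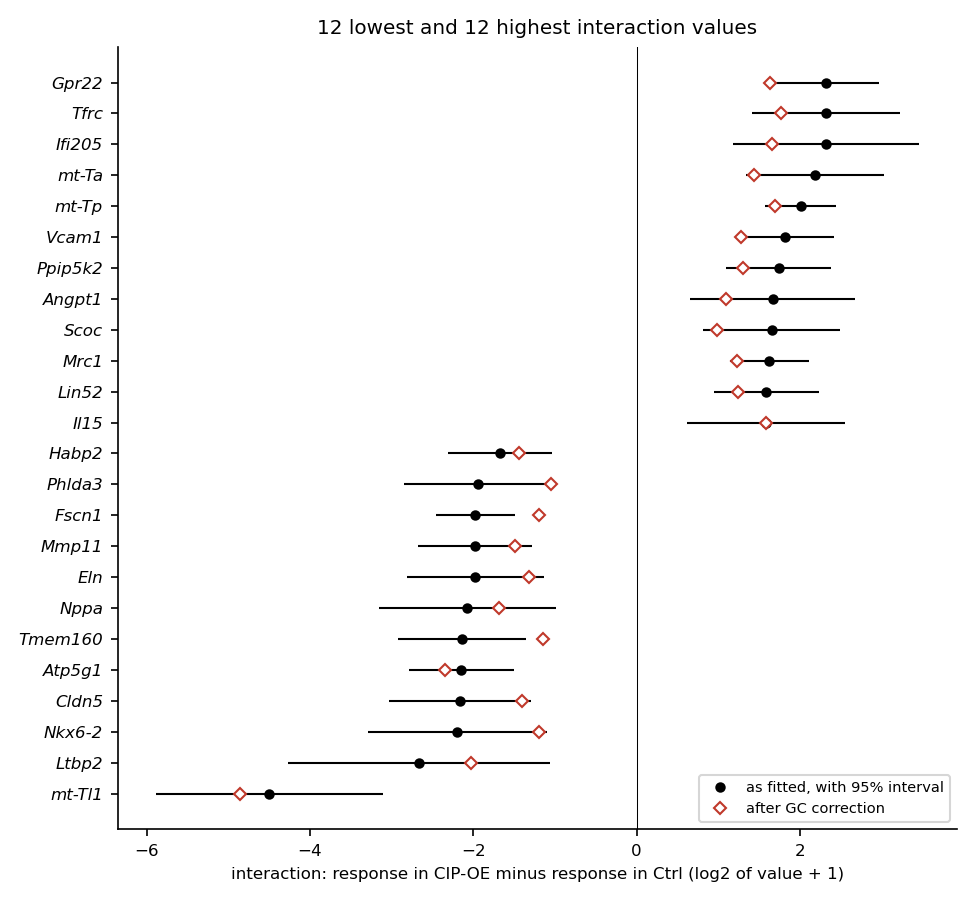
Interaction values (log2, CIP-OE response minus Ctrl response to TAC) of the 12 most negative and 12 most positive called genes under the naming rule, with 95% intervals from limma (black), and the value of each gene after GC correction (open diamonds). The values run from -4.5 for mt-Tl1 to 2.33 for Gpr22, and the GC-corrected values keep the sign in all 24.

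Genes of resident macrophages were among those with positive interactions. F13a1, the A chain of coagulation factor XIII and a macrophage product, was the 1 gene with a passing response in each genotype and opposite signs. It was at 530.2, 395 and 339 in Ctrl-Sham, 234, 309.6 and 215 in Ctrl-TAC, 188, 262 and 229.8 in CIP-OE-Sham and 355, 391.9 and 370.3 in CIP-OE-TAC. It fell in Ctrl hearts, with a response of -0.73 (adjusted p = 0.0021), and rose in CIP-OE hearts, with 0.73 (adjusted p = 0.04), an interaction of 1.45 (SE 0.24, adjusted p = 0.0019) and 1.2 (adjusted p = 0.02) GC-corrected. Mrc1, the mannose receptor CD206, was at 402, 335 and 241 in Ctrl-Sham, 128, 160.5 and 148 in Ctrl-TAC, 193, 195 and 178 in CIP-OE-Sham and 241, 303 and 256 in CIP-OE-TAC. Ctrl-TAC lay below all other libraries and the CIP-OE-TAC libraries above those of CIP-OE-Sham, with 1.62 (SE 0.23, adjusted p = 0.0011) and 1.23 (adjusted p = 0.014) GC-corrected. Lyve1, a hyaluronan receptor of tissue-resident macrophages and lymphatic vessels, was at 332, 248 and 156 in Ctrl-Sham, 154, 182 and 168 in Ctrl-TAC, 121, 121 and 111 in CIP-OE-Sham and 174, 229.7 and 211 in CIP-OE-TAC. Neither of its responses passed, at -0.48 (adjusted p = 0.063) and 0.79 (adjusted p = 0.063), and its interaction was 1.27 (SE 0.28, adjusted p = 0.01), or 1.01 (adjusted p = 0.108) GC-corrected. Of 16 macrophage markers tested, these last 2 passed higher, against 5.43% over all genes, and none passed lower. A positive value was found for 14, with a median of 0.36. The summed level of the list was between 1916 and 3022 in Ctrl-Sham, between 2047 and 3310 in Ctrl-TAC, between 1670 and 1975 in CIP-OE-Sham and between 2354 and 2951 in CIP-OE-TAC, and Trem2 was at 0 in every library. The abundant Lyz2 and C1qa had 0.20 (adjusted p = 0.725) and 0.084 (adjusted p = 0.901). The difference between genotypes in sham hearts, which enters these values, passed for none of them, at -0.88 (adjusted p = 0.077) for F13a1, -0.75 (adjusted p = 0.087) for Mrc1 and -0.99 (adjusted p = 0.087) for Lyve1. The promoter of Mrc1 (chr2:14229164-14229413, + strand, GRCm38.p6) is given with matches on either strand to GAGGAA, bound by the macrophage factor PU.1, in capitals.
Mrc1: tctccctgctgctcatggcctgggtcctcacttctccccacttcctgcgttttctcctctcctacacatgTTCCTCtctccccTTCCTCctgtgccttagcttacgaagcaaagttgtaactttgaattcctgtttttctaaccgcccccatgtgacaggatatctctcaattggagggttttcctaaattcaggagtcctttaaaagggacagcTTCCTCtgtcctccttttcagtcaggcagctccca
It held 3 matches, where 23.3% of all windows held at least 1, as did 22.6% of those of genes tested, 22.7% of those of genes called higher and 21% of those called lower.

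A few interactions rested on a response in CIP-OE hearts. Slc27a1, the fatty acid transport protein FATP1, was at 435, 496 and 484 in Ctrl-Sham, 509, 433 and 509 in Ctrl-TAC, 683, 643 and 840.3 in CIP-OE-Sham and 310.1, 354 and 387 in CIP-OE-TAC. The CIP-OE-Sham libraries were the highest and the CIP-OE-TAC libraries the lowest, outside all others on either side. It had a response of 0.034 (adjusted p = 0.864) in Ctrl and -1.04 (adjusted p = 0.00081) in CIP-OE hearts, and an interaction of -1.07 (SE 0.19, adjusted p = 0.0028). Slc25a42, the mitochondrial coenzyme A carrier, was at 569, 578 and 471 in Ctrl-Sham, 525, 470.1 and 529 in Ctrl-TAC, 667, 556 and 751 in CIP-OE-Sham and 378, 363 and 398 in CIP-OE-TAC. It had -0.70 (SE 0.19, adjusted p = 0.022), and its call was lost without any 1 of Ctrl_Sham_4033, KI_Sham_3737 and KI_TAC_3579. Slc25a34, another mitochondrial carrier, had -0.90 (SE 0.19, adjusted p = 0.0077). Mindy3, a deubiquitinase, was at 95.3, 109 and 96.5 in Ctrl-Sham, 97.9, 83.5 and 85.9 in Ctrl-TAC, 61.6, 68.1 and 62.2 in CIP-OE-Sham and 106, 103 and 97.7 in CIP-OE-TAC. Its CIP-OE-Sham libraries were below the other 9, with 0.84 (SE 0.22, adjusted p = 0.022), and the call was lost without KI_TAC_3579 (adjusted p = 0.053). After GC correction Slc27a1 was at -0.56 (adjusted p = 0.152) and none of these 4 passed. Among genes where neither response passed alone, Ywhah, a 14-3-3 protein, was at 148, 142 and 162 in Ctrl-Sham, 125, 139 and 109 in Ctrl-TAC, 129, 152 and 132 in CIP-OE-Sham and 187, 194 and 229 in CIP-OE-TAC. The CIP-OE-TAC libraries stood above all others, with 0.84 (SE 0.21, adjusted p = 0.016) and 0.89 (adjusted p = 0.038) GC-corrected. Gpm6b, a membrane glycoprotein, and Rasgef1b, a guanine nucleotide exchange factor, had 0.92 (SE 0.23, adjusted p = 0.016) and 1.3 (SE 0.34, adjusted p = 0.02), and neither passed GC-corrected, at 0.38 (adjusted p = 0.526) and 1.16 (adjusted p = 0.121).

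In 34 called genes both responses passed with the same sign. Trim47, a ubiquitin ligase, was at 57.6, 61.1 and 47.7 in Ctrl-Sham, 295, 285 and 267 in Ctrl-TAC, 40.6, 57.3 and 61.2 in CIP-OE-Sham and 128, 90 and 116 in CIP-OE-TAC. Both TAC groups were above both sham groups with no overlap between them, and its response of 2.33 (adjusted p = 1.5e-07) in Ctrl and 1.06 (adjusted p = 0.0071) in CIP-OE hearts gave an interaction of -1.27 (SE 0.26, adjusted p = 0.0061). Zyx, the focal adhesion protein zyxin, had the same order with -1.14 (SE 0.22, adjusted p = 0.0041). Igfbp5, an IGF-binding protein, was at 566, 549.6 and 841 in Ctrl-Sham, 1968, 1939 and 2374 in Ctrl-TAC, 938, 869 and 909.9 in CIP-OE-Sham and 1464, 1232 and 1488 in CIP-OE-TAC, and had -1.09 (SE 0.21, adjusted p = 0.0048) and -1.04 (adjusted p = 0.02) GC-corrected. The calls of the other pair were lost then, with Trim47 at -0.29 (adjusted p = 0.639) and Zyx at -0.65 (adjusted p = 0.173).

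Mitochondrial tRNAs split by strand. Of 12 tested, 7 were called (58.3%, against 11.3% of all genes), 4 lower among the 6 on the + strand (that of most mitochondrial genes) and 3 higher among the 6 on the - strand. All 6 on the + strand had an interaction below 0, and 4 of 6 on the - strand had a value above 0. The called tRNAs are printed as the mature gene sequence (GENCODE M21, GRCm38, chromosome M, 5′ to 3′ on the gene's strand), with the anticodon in capitals, because each is short and lies within the primary transcripts of its strand.
mt-Tl1: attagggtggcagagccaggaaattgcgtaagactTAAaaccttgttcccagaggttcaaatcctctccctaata
mt-Tr: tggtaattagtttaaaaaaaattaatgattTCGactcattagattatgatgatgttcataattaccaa
mt-Tm: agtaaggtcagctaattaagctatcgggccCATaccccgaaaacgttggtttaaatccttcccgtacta
mt-Ti: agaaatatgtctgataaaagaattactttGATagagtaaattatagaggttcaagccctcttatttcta
mt-Tn: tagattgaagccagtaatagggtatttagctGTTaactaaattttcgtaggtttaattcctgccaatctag
mt-Tp: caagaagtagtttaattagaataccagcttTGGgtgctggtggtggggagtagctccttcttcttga
mt-Ta: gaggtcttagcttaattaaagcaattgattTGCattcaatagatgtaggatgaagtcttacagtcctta
The anticodon was placed by a script as the middle of a 7-base loop closed by a stem of up to 5 pairs.

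mt-Tl1 (chrM:2676-2750, + strand), the tRNA for leucine with anticodon TAA, was at 94.3, 109.9 and 81.6 in Ctrl-Sham, 2736, 812 and 1225 in Ctrl-TAC, 196, 197 and 90.7 in CIP-OE-Sham and 108, 84.4 and 102 in CIP-OE-TAC. It was high in the Ctrl-TAC libraries alone, with an interaction of -4.5 (SE 0.62, adjusted p = 0.0042) and -4.86 (adjusted p = 0.017) GC-corrected. mt-Tr, the arginine tRNA, had -2.56 (SE 0.73, adjusted p = 0.029), mt-Tm, the methionine tRNA, -1.36 (SE 0.36, adjusted p = 0.032), and mt-Ti, the isoleucine tRNA, -0.89 (SE 0.26, adjusted p = 0.033). On the - strand, mt-Tp (chrM:15356-15422, - strand), the proline tRNA, was at 4068, 3224 and 3477 in Ctrl-Sham, 691, 957 and 851 in Ctrl-TAC, 4095, 2989 and 3927 in CIP-OE-Sham and 3309, 3706 and 3185 in CIP-OE-TAC. It was low in the Ctrl-TAC libraries alone, with 2.01 (SE 0.21, adjusted p = 3.9e-05) and 1.69 (adjusted p = 0.00019) GC-corrected. mt-Ta, the alanine tRNA, was at 3983, 2506 and 4201 in Ctrl-Sham, 655, 479 and 828 in Ctrl-TAC, 6092, 3757 and 3457 in CIP-OE-Sham and 3609, 4366 and 2940.5 in CIP-OE-TAC. It had the same pattern, with 2.19 (SE 0.39, adjusted p = 0.007), and mt-Tn, the asparagine tRNA, had 1.03 (SE 0.27, adjusted p = 0.02). The genes around mt-Tl1 did not follow it: mt-Rnr2, the 16S rRNA, had 0.28 (adjusted p = 0.51), mt-Rnr1, the 12S rRNA, had 0.67 (adjusted p = 0.098), and mt-Nd1 had 0.37 (adjusted p = 0.334). Whether the counting used strand is not given, so reads of a tRNA and of a longer transcript over the same bases cannot be told apart. Of the 7 calls, mt-Tl1, mt-Tr, mt-Ti and mt-Tp also passed after GC correction, while the calls were lost for mt-Ta at 1.44 (adjusted p = 0.056), mt-Tm at -1.67 (adjusted p = 0.08) and mt-Tn at 0.30 (adjusted p = 0.609).

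Branched-chain amino acid breakdown and the TCA cycle had more genes that passed higher than lower, while the respiratory chain did not. In the breakdown of branched-chain amino acids, 6 of 18 genes passed higher and 1 lower, against 5.43% and 6.18% over all genes. The median was 0.42, and 13 genes fell in Ctrl hearts against 1 in CIP-OE hearts. Over all genes 20.2% fell in Ctrl hearts and 0.508% in CIP-OE hearts. Aldh6a1, of the valine branch, was at 2651, 2545 and 2824 in Ctrl-Sham, 935, 1023 and 1341 in Ctrl-TAC, 2472, 2313 and 2151 in CIP-OE-Sham and 1871, 1853 and 1583 in CIP-OE-TAC. Bckdhb, the E1 beta subunit of the branched-chain ketoacid dehydrogenase, was at 388, 343 and 351 in Ctrl-Sham, 183, 163 and 165 in Ctrl-TAC, 292, 276 and 318 in CIP-OE-Sham and 264, 248 and 219.9 in CIP-OE-TAC. Ctrl-TAC was lowest in both with the CIP-OE-TAC libraries next, and the interactions were 0.91 (SE 0.19, adjusted p = 0.0069) and 0.80 (SE 0.18, adjusted p = 0.0093). GC-corrected, Bckdhb was at 0.85 (adjusted p = 0.02). The others of the complex did not move together: Dbt, the E2 core, had 0.78 (adjusted p = 0.017) and Bckdha, the E1 alpha partner of Bckdhb, had -0.93 (adjusted p = 0.017). Ivd, of the leucine branch, had 0.086 (adjusted p = 0.769). In the TCA cycle 4 of 16 passed, all higher (Idh3a, Dld, Sucla2 and Suclg2), against 5.43% higher over all genes. The median was 0.26. In this list 10 fell in Ctrl hearts and none in CIP-OE hearts, where falls were rare over all genes. Sucla2, the ADP-forming subunit of succinyl-CoA ligase, was at 4282, 3819.5 and 3891 in Ctrl-Sham, 1823, 1901 and 2036 in Ctrl-TAC, 3386, 3250.0 and 3105 in CIP-OE-Sham and 2596, 2807 and 2808 in CIP-OE-TAC. Suclg2, the GDP-forming subunit, was at 513, 479 and 463 in Ctrl-Sham, 267, 195 and 283 in Ctrl-TAC, 579, 477 and 493 in CIP-OE-Sham and 451, 498 and 511 in CIP-OE-TAC. Neither overlapped between Ctrl-TAC and the other groups, with 0.81 (SE 0.16, adjusted p = 0.0049) and 0.90 (SE 0.20, adjusted p = 0.0089), while Ogdh, among the most abundant of the list, had -0.16 (adjusted p = 0.619). After GC correction Bckdhb was the 1 gene of these lists to pass, the medians were 0.18 and 0.15, and the calls were lost for Aldh6a1 at 0.47 (adjusted p = 0.252), Sucla2 at 0.41 (adjusted p = 0.224) and Suclg2 at 0.56 (adjusted p = 0.214).

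Fatty acid uptake and oxidation had 3 of 28 genes higher and 2 lower, against 5.43% and 6.18% over all genes, with a median of 0.16. In this list 17 fell in Ctrl hearts and 3 in CIP-OE hearts, against 20.2% and 0.508% of all genes. The 3 with a higher interaction were Decr1 (0.68), which handles unsaturated fatty acids, and Etfdh (0.68) and Etfa (0.74), which pass electrons to the respiratory chain. Slc27a1 (-1.07), described above, was 1 of the 2 with a lower one. Etfa was at 2643, 2425 and 2569 in Ctrl-Sham, 1262, 1026 and 1352 in Ctrl-TAC, 2233, 1809.9 and 1929 in CIP-OE-Sham and 1436, 1710.2 and 1576 in CIP-OE-TAC, with 0.74 (SE 0.18, adjusted p = 0.016), a call lost without KI_TAC_3579 (adjusted p = 0.051). The most abundant members, the fatty acid receptor Cd36 and the trifunctional protein subunit Hadha, had 0.35 (adjusted p = 0.279) and 0.15 (adjusted p = 0.605). After GC correction none of the 28 passed, with a median of 0.076. In complex I of the respiratory chain 1 of 36 genes passed higher, Ndufs1 (0.63), and 4 lower, Ndufb4 (-1.39), Ndufa11 (-1.25), Ndufa7 (-1.02) and Ndufs7 (-0.99), with 25 below 0, a median of -0.22 and none passing after GC correction. Complexes II to V were divided, with 5 of 40 higher and 6 lower and a median of -0.12. For both lists of complexes the shares over all genes were again 5.43% higher and 6.18% lower. The higher ones were Cycs (1.06), Atp5l (0.81), Atp5j (0.68), Sdha (0.57) and Atp5c1 (0.55). The lower ones were Atp5g1 (-2.15), Cox7c (-2.14), Cox6a2 (-0.97), Uqcr10 (-0.91), Atp5j2 (-0.84) and Cyc1 (-0.77). Cox7c, a small subunit of cytochrome c oxidase, was at 17.9, 17.3 and 28.6 in Ctrl-Sham, 82.2, 67.3 and 68.6 in Ctrl-TAC, 20.9, 17.3 and 20 in CIP-OE-Sham and 10.9, 13.1 and 21.6 in CIP-OE-TAC. It had -2.14 (SE 0.42, adjusted p = 0.0047) and, with Atp5g1, was the other member to pass after GC correction, at -2.74 (adjusted p = 0.0058). The mean level of Cox7c over all libraries was only 32.1, against 8192 for Cox6a2, so its values rest on few reads. Why its level was so low was not tested. Cox6a2, the heart and muscle form of its subunit, was at 6257, 7005 and 5935 in Ctrl-Sham, 15489.9, 13673 and 9799 in Ctrl-TAC, 6576, 5162 and 8161 in CIP-OE-Sham and 8603, 5591 and 6056 in CIP-OE-TAC, and its call held in 4 of 12 fits with a library left out. Atp5b, the catalytic beta subunit, had 0.16 (adjusted p = 0.595).

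Of 30 chaperone genes tested, 6 passed higher and 4 lower, against 5.43% and 6.18% over all genes. The median was 0.016, and none was past the threshold after GC correction. The 4 were small heat shock proteins and their partner Bag3 (Hspb1 (-1.25), Hspb6 (-0.98), Bag3 (-0.94) and Hspb8 (-0.77)), and the 6 were of the Hsp70 and Hsp60 families and the endoplasmic reticulum (Hspd1 (0.84), Hsp90b1 (0.77), Pdia3 (0.70), Hspa4 (0.62), Hspa9 (0.60) and Canx (0.54)). This grouping was made after the values were seen and was not tested. Hspb6 was at 7174, 8936 and 8502 in Ctrl-Sham, 17577, 22432 and 22313 in Ctrl-TAC, 7915, 8369 and 9129 in CIP-OE-Sham and 12575, 11361 and 8964 in CIP-OE-TAC. Bag3, the co-chaperone of chaperone-assisted autophagy in muscle, was at 1236, 1457 and 1296 in Ctrl-Sham, 2399, 3192 and 3444 in Ctrl-TAC, 1832, 2029 and 1732 in CIP-OE-Sham and 2446, 2086 and 2025 in CIP-OE-TAC. Ctrl-TAC was the highest group for Hspb6, and for Bag3 the lowest Ctrl-TAC library lay below the highest CIP-OE-TAC library. Hspb7, the most abundant of the family measured, had -0.35 (adjusted p = 0.255). In the list of muscle atrophy and autophagy 8 of 22 passed, all lower, against 6.18% lower over all genes. They were Ctsd (-1.1), Tfeb (-1.07), Trim54 (-0.93), Sqstm1 (-0.85), Map1lc3a (-0.80), Gabarapl1 (-0.75), Ulk1 (-0.70) and Ctsb (-0.58). The median of the list was -0.27. The members that moved include the autophagy kinase Ulk1, the lysosomal regulator Tfeb, the cargo receptor Sqstm1 and the lysosomal proteases Ctsd and Ctsb. Ctsd was at 2339, 2588 and 2148 in Ctrl-Sham, 5159, 4470.4 and 5227 in Ctrl-TAC, 2542, 2624 and 2874 in CIP-OE-Sham and 2786, 2503 and 2606 in CIP-OE-TAC. Ctrl-TAC was above the other 9 libraries, with -1.1 (SE 0.17, adjusted p = 0.0014) and -0.66 (adjusted p = 0.036) GC-corrected, the 1 of the 8 that passed then. Map1lc3a had -0.80 (SE 0.17, adjusted p = 0.0078) but 0.13 (adjusted p = 0.75) GC-corrected, with the opposite sign.

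Among genes of the intercalated disc and nuclear lamina, 2 of 24 passed higher (Dsg2, 0.79, and Tmpo, 0.73) and 3 lower (Jup, -1.22, Lmna, -1.13, and Emd, -0.66). Over all genes 5.43% passed higher and 6.18% lower. CIP is also known as the A-type lamin interacting protein, and Lmna encodes the A-type lamins. Lmna was at 248, 257 and 208 in Ctrl-Sham, 649, 537 and 543 in Ctrl-TAC, 275, 345 and 326 in CIP-OE-Sham and 338, 303 and 405 in CIP-OE-TAC. Ctrl-TAC was above the other 9 libraries, with -1.13 (SE 0.20, adjusted p = 0.0028) and -0.89 (adjusted p = 0.025) GC-corrected, the 1 gene of the list that passed then. Jup, the plakoglobin of desmosomes, was at 891, 955 and 1082 in Ctrl-Sham, 1921, 1823 and 2089 in Ctrl-TAC, 1142, 1146 and 1329.5 in CIP-OE-Sham and 1155, 979.8 and 961 in CIP-OE-TAC, with -1.22 (SE 0.18, adjusted p = 0.0011) and -0.57 (adjusted p = 0.131) GC-corrected, and its partner Dsg2, a desmosomal cadherin, moved the other way. The abundant desmosomal protein Dsp and the gap junction protein Gja1 had -0.15 (adjusted p = 0.642) and 0.49 (adjusted p = 0.333).

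**Figure D4:**
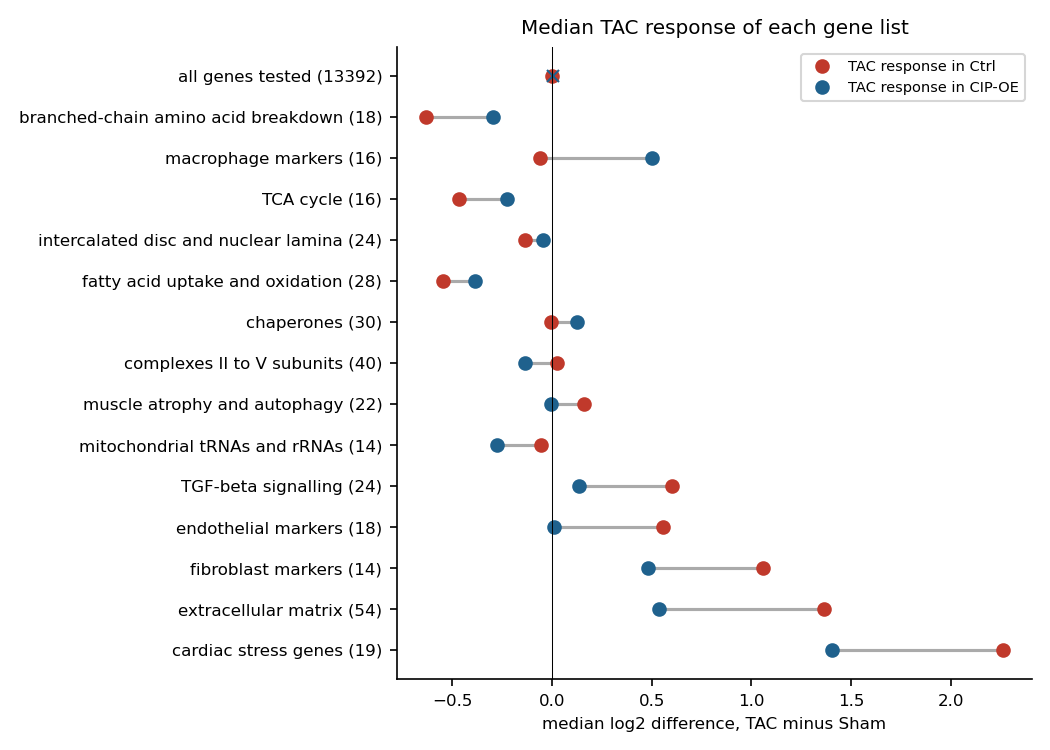
Median response to TAC (log2, TAC minus Sham) of each of the 14 gene lists described, in Ctrl hearts (red) and CIP-OE hearts (blue), with the number of genes tested in parentheses and all 13392 genes at the top. The medians of the cardiac stress genes are 2.26 and 1.41 and those of the extracellular matrix 1.36 and 0.54, while those of fatty acid oxidation, the TCA cycle and branched-chain amino acid breakdown lie below 0 in both genotypes and closer to 0 in CIP-OE hearts, and those of complexes II to V are 0.026 and -0.14.

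Of the other genes that the study discusses, Des (-1.0), Sod3 (-1.17), Rhoc (-0.92), Pdgfb (-0.89), Gata4 (-0.90) and Uqcr10 (-0.91) had a called interaction. Des, the intermediate filament desmin, was at 7329, 8644 and 7393 in Ctrl-Sham, 18298, 19127 and 21259 in Ctrl-TAC, 7828, 11079.9 and 9950.0 in CIP-OE-Sham and 11429.7, 11806 and 12577 in CIP-OE-TAC. Gata4, a transcription factor of cardiac growth, was at 511, 537 and 544 in Ctrl-Sham, 899, 1223 and 754 in Ctrl-TAC, 703, 639 and 791 in CIP-OE-Sham and 596, 727 and 694 in CIP-OE-TAC. The Ctrl-TAC libraries of Des were above all others, while 1 CIP-OE-Sham library of Gata4 was above the lowest Ctrl-TAC library, and the interactions were -1.0 (SE 0.19, adjusted p = 0.0041) and -0.90 (SE 0.21, adjusted p = 0.013). Sod3, the extracellular superoxide dismutase, was at 218, 337 and 228 in Ctrl-Sham, 954, 1073 and 666 in Ctrl-TAC, 204, 248.7 and 287 in CIP-OE-Sham and 411, 295 and 428 in CIP-OE-TAC, with -1.17 (SE 0.29, adjusted p = 0.02), a call lost without any 1 of Ctrl_Sham_4010, Ctrl_Sham_4033, Ctrl_TAC_3586, KI_Sham_3737 and KI_TAC_3579. The calls of Rhoc, a small GTPase, and Pdgfb, a growth factor of pericytes, were lost without any 1 of KI_Sham_3737 and KI_TAC_3579 and without any 1 of Ctrl_Sham_4010, KI_Sham_3737 and KI_TAC_3579, respectively, at adjusted p up to 0.053 and 0.05. The interaction did not pass for Fbn1 (-0.98), Igf1r (-0.50), Rictor (0.53), Bax (-0.93), Cebpa (-0.81), Cebpb (-1.72), Cox8b (-0.48), Ndufa1 (-0.52), Ndufb9 (-0.27), Uqcr11 (-0.94), Cox5a (-0.14), Junb (-0.82), Fgfr1 (-0.71), Igfbp7 (-0.16), Prkg1 (0.91) and Bbc3 (-1.31). Igfbp7, an IGF-binding protein, was at 927, 908 and 944 in Ctrl-Sham, 2624, 2127 and 1539.6 in Ctrl-TAC, 729, 641 and 649 in CIP-OE-Sham and 1161, 1204 and 1698 in CIP-OE-TAC, so it was higher in TAC than in sham libraries of either genotype, with responses of 1.14 (adjusted p = 4.8e-05) and 0.99 (adjusted p = 0.0071). Cox5a was instead lower in all 6 CIP-OE libraries than in all 6 Ctrl libraries, at 3617, 3411 and 3159 in Ctrl-Sham, 3601, 3384 and 2805 in Ctrl-TAC, 1991, 2374 and 2155 in CIP-OE-Sham and 1961, 1894 and 1814 in CIP-OE-TAC. None of the genes in this paragraph passed after GC correction.

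Sequence features of the called genes were compared with those of all genes tested. The median GC content of the longest transcript was 41.7% in genes called higher, 57.3% in genes called lower and 49.6% over all. Across 13264 genes the interaction had a Spearman correlation with transcript GC content of -0.663, the response in Ctrl hearts 0.641 and the response in CIP-OE hearts 0.0803. The promoters of the same genes did not separate in this way, with a median GC content of 60% in genes called higher, 61.2% in genes called lower and 60% over all tested. By 5 equal bins of transcript GC content, from lowest to highest, the median interaction was 0.51, 0.28, 0.015, -0.25 and -0.59, and the share called was 18.7, 6.67, 3.13, 6.71 and 21.1%. GC content thus moved with the sign of the interaction, and the correction, which removes any relation to GC content whether technical or not, left a correlation of -0.015.

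**Figure D5:**
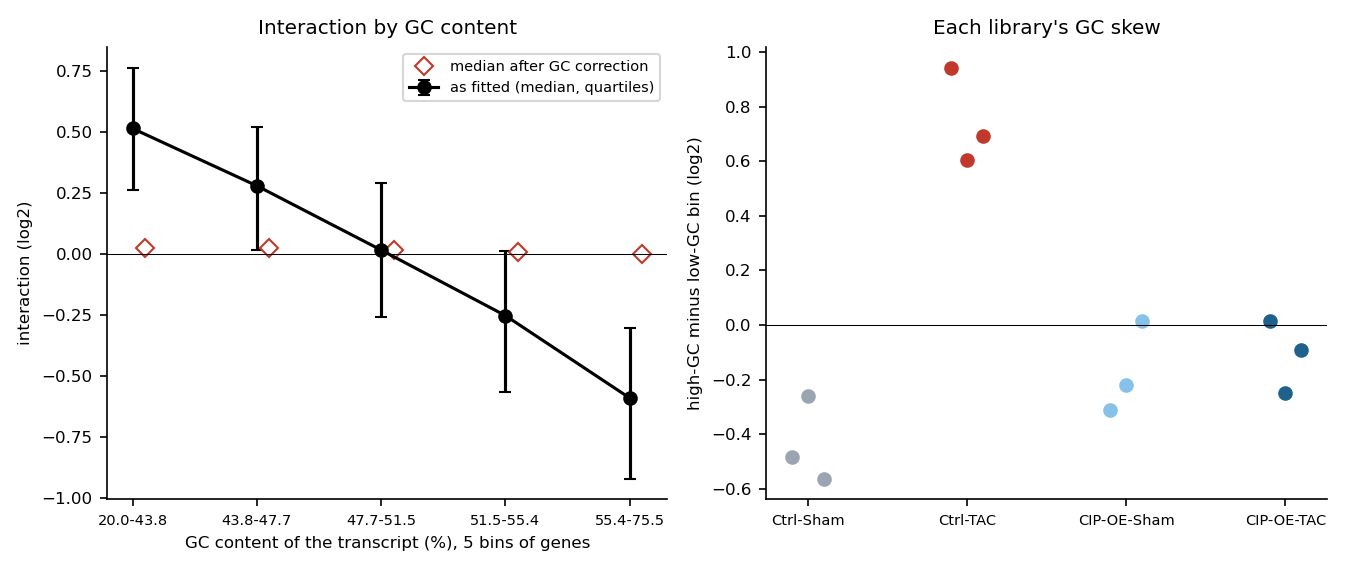
Left, median interaction (log2, bars for the quartiles) of 13264 genes in 5 bins of the GC content of the longest transcript (%), as fitted and after GC correction. Right, median log2 deviation of the high-GC minus the low-GC bin in each of the 12 libraries. The median falls from 0.51 in the lowest bin to -0.59 in the highest, and the 3 Ctrl-TAC libraries lie at 0.604 to 0.943 while the other 9 lie at -0.562 to 0.0163.

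A smaller set of interactions met 3 further conditions together. Of the 1508 called genes, 1376 were called by limma, edgeR and DESeq2 alike, 569 were called in all 12 fits with 1 library left out, and 73 met both conditions and were called after GC correction, 26 higher and 47 lower. The named genes in this set were mt-Tl1, Atp5g1, Mmp11, Fscn1, Habp2, Cox7c, Ctsd, Lmna, Igfbp5 and Abi3 on the lower side and Gpr22, mt-Tp, Ppip5k2, Mrc1, Bckdhb, F13a1 and Ywhah on the higher side. Other annotated genes overlap Ltbp2, Nkx6-2, Eln, Mmp11, Vcam1, Ppip5k2, Angpt1, Ctsd, F13a1 and Abi3. The same holds for Col4a2, Eng, Cox6a2, Aldh6a1, Hspb6, Ctsb, Hadha, Dsp and Fbn1, among others. Reads of genes that overlap on opposite strands cannot be told apart without the strand setting. For Ctsd and Hspb6 an overlapping gene lies on the same strand, where that setting would not separate the reads.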

How the data were processed

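RNA of whole hearts was sequenced in 12 mice, and the table deposited by the authors holds 1 column of normalized read counts per library, a signal scaled by size factors. GRCm38, StringTie 2.1.4, HISAT2 2.0.4 and DESeq2 1.4.5 are named in the submitters' processing notes, whereas the study's methods name STAR and featureCounts, so the aligner and counter are uncertain, and no source used here gives the strand setting. Of 54515 rows, 633 exact duplicates were removed. All values came out as whole multiples of the value of 1 read (100% within 0.001), which gave the depth of each library and the reads for the count tests.

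Values were analysed as log2(value + 1) with limma 3.58.1 (R 4.3.3) in a model of the 4 group means over all 12 libraries, empirical Bayes with a trend and robust estimation, and Benjamini-Hochberg adjustment over the 13392 genes that reached 10 in at least 3 libraries. A fold change on this scale understates changes of low genes. Alternatives were edgeR 4.0.16 and DESeq2 1.42.0 on recovered reads, other scalings, filters and pseudocounts, each library left out, and a correction that subtracted a lowess curve (span 0.3) over transcript GC content in each library, fitted for the 13264 genes with a GENCODE M21 transcript. On simulated interactions over 13392 genes, 46% of 2-fold and 96% of 4-fold changes were recovered, with 12 false calls of 13192. The simulated libraries shared 1 mean profile, with no GC skew and no TAC response in Ctrl. Changed genes were drawn only from those above a minimum mean read count. These rates therefore check the fit and do not give the error rates of the calls reported here.

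Genes named are the 12 most negative and 12 most positive called values with a mean of at least 50. Predicted genes, pseudogenes and ribosomal protein genes were skipped. Up to 4 genes per response pattern, the members of each list with the smallest p or highest level, and genes of the study are also named. Shared responses were picked for a small interaction and a high level. A few genes that this rule takes in are not reported here. Other names were chosen after their values were seen. The members and lists were chosen with earlier results of these data known. Animals are biological replicates with no animal number shared between groups. Annotation is GENCODE M21, and promoters are from RefSeq (GRCm38.p6).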

Additional observations from a re-analysis of the deposited data

Results flagged for a closer look

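The response to TAC differed between the genotypes, by the interaction test, for 695 genes with a higher and 813 with a lower response in CIP-OE hearts, and for the following named genes, given with the interaction on the log2 scale.

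The response was lower in CIP-OE hearts for mt-Tl1 -4.5, Ltbp2 -2.66, Nkx6-2 -2.19, Cldn5 -2.16, Atp5g1 -2.15, Tmem160 -2.14, Nppa -2.07, Eln -1.97, Mmp11 -1.97, Fscn1 -1.97, Phlda3 -1.94, Habp2 -1.67, Tnfrsf12a -1.38, Col4a2 -1.34, Hspg2 -1.19, Bgn -1.02, Smad7 -1.22, Eng -1.15, Cox7c -2.14, Cox6a2 -0.97, Slc27a1 -1.07, Ctsd -1.1, Map1lc3a -0.80, Hspb6 -0.98, Bag3 -0.94, Jup -1.22, Lmna -1.13, Cdh5 -0.84, Robo4 -0.91, Cd248 -1.55, Col1a1 -1.35, Tgfb1 -0.82, Des -1.0, Uqcr10 -0.91, Sod3 -1.17, Rhoc -0.92, Pdgfb -0.89, Gata4 -0.90, Zyx -1.14, Igfbp5 -1.09, Trim47 -1.27, Slc25a34 -0.90, Slc25a42 -0.70, Abi3 -1.47 and Dmpk -1.37.

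It was higher for Gpr22 2.33, Tfrc 2.32, Ifi205 2.32, mt-Ta 2.19, mt-Tp 2.01, Vcam1 1.81, Ppip5k2 1.74, Angpt1 1.67, Scoc 1.65, Mrc1 1.62, Lin52 1.59, Il15 1.59, Etfa 0.74, Sucla2 0.81, Suclg2 0.90, Aldh6a1 0.91, Bckdhb 0.80, Lyve1 1.27, F13a1 1.45, Gpm6b 0.92, Ywhah 0.84, Rasgef1b 1.3 and Mindy3 0.84.

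Of these 68 genes, 17 also passed after GC correction, and 52 kept their call in every fit with 1 library left out.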

How the results depend on the processing

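The counts of called genes (695 higher, 813 lower) moved most with the GC correction (42 and 69), GC and length correction (54 and 88), limma without the trend (283 and 375), a 2-fold threshold (210 and 402) and an adjusted p of 0.01 (132 and 229). With 1 library left out they ranged from 290 to 867 higher and from 417 to 848 lower, lowest without KI_TAC_3579. They were 336 and 440 without Ctrl_Sham_4010, 390 and 501 without Ctrl_Sham_4033, and 408 and 496 without KI_Sham_3737. Scaling by totals that leave out mitochondrial genes and the 20 most abundant ones turned the split to 960 higher and 643 lower, and the causes of these shifts were not tested. Other alternatives stayed within 1.5 times (quantile normalization 802 and 788, edgeR 712 and 811, DESeq2 674 and 855). No paired analysis was possible because the groups share no animal numbers.

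The sign of a named interaction reversed under quantile normalization for Ankrd1 (0.31) and Ogdh (0.30), under the totals just named for Ankrd1 (0.041), under GC correction for Bmpr2 (-0.15), mt-Rnr2 (-0.40), mt-Rnr1 (-0.0019), Cd36 (-0.25), Ogdh (0.035), Map1lc3a (0.13), Hspb7 (0.21), Dsp (0.0029), Aqp1 (0.20), Gsn (0.0083), Bax (0.030), Cebpa (0.088), Ndufb9 (0.13), Junb (0.081) and Igfbp7 (0.50), under GC and length correction for Bmpr2 (-0.18), mt-Rnr2 (-0.39), Cd36 (-0.24), Ogdh (0.039), Map1lc3a (0.16), Hspb7 (0.21), Aqp1 (0.20), Gsn (0.0089), Bax (0.062), Cebpa (0.087), Cox8b (0.048), Ndufb9 (0.19), Junb (0.082) and Igfbp7 (0.53), under array weights for Gnao1 (-0.019), under edgeR for Gnao1 (-0.012), under DESeq2 for Gnao1 (-0.019). Map1lc3a was the only called gene among them. With 1 library left out, signs reversed for Ankrd1 (-0.35 to 0.27), Dcn (-0.41 to 0.064), Ogdh (-0.30 to 0.014), Dsp (-0.26 to 0.0045), Aqp1 (-0.47 to 0.15), Lyz2 (-0.011 to 0.40), C1qa (-0.28 to 0.30), Nppb (-0.62 to 0.14), Igfbp7 (-0.36 to 0.022), Esr1 (-1.02 to 0.40), Col8a1 (-0.39 to 0.13) and Gnao1 (-0.16 to 0.15), none of them called. Of the called genes named, 16 lost their call when single libraries were left out, at adjusted p up to 0.108: without Ctrl_Sham_4010 Nppa, Angpt1, Il15, Bgn, Cox6a2, Cd248, Col1a1, Tgfb1, Sod3 and Pdgfb, without Ctrl_Sham_4011 Ltbp2, Angpt1 and Cd248, without Ctrl_Sham_4033 Ltbp2, Nppa, Angpt1, Il15, Bgn, Cox6a2, Col1a1, Tgfb1, Sod3, Rasgef1b and Slc25a42, without Ctrl_TAC_3586 Ltbp2, Nppa, Angpt1, Il15, Bgn, Cox6a2, Cd248, Col1a1, Tgfb1 and Sod3, without Ctrl_TAC_3800 Ltbp2, Nppa, Bgn, Cox6a2, Cd248 and Col1a1, without Ctrl_TAC_4231 Ltbp2, Bgn and Col1a1, without KI_Sham_3643 Ltbp2, Angpt1, Il15, Cox6a2 and Tgfb1, without KI_Sham_3644 Ltbp2, Angpt1, Il15, Bgn, Cd248 and Col1a1, without KI_Sham_3737 Ltbp2, Angpt1, Bgn, Cox6a2, Cd248, Col1a1, Tgfb1, Sod3, Rhoc, Pdgfb and Slc25a42, without KI_TAC_3577 Ltbp2, Il15, Bgn and Col1a1, without KI_TAC_3579 Ltbp2, Nppa, Angpt1, Il15, Bgn, Cox6a2, Etfa, Col1a1, Tgfb1, Sod3, Rhoc, Pdgfb, Rasgef1b, Slc25a42 and Mindy3, without KI_TAC_3587 Angpt1, Cox6a2 and Tgfb1. Of the medians of the 14 lists, 11 kept their sign in all recomputations. That of mitochondrial tRNAs and rRNAs changed sign under the filter at 50 (0.062). That of chaperones (0.016 as fitted) changed sign under array weights (-0.14), edgeR (-0.083) and DESeq2 (-0.091) and ran from -0.065 to 0.32 with 1 library left out, and that of complexes II to V (-0.12 as fitted) under array weights (0.020) and GC and length correction (0.0031), with -0.23 to 0.11. With 3 animals per group the median standard error of an interaction was 0.287, so interactions near that size could not be told from 0. Larger ones could also fail to pass, such as that of Igf1r at -0.50 (SE 0.27, limma adjusted p = 0.227). A gene that did not pass is therefore not shown to lack an interaction.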

Other observations

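Processed pseudogenes had a called interaction in 16 of 86 tested (18.6%), against 11.5% of protein-coding genes. The examples with their parents, chosen after their values were seen, were Gpx4-ps2 at -5.64 (adjusted p = 3.9e-05) and Gpx4 at -1.03 (adjusted p = 0.043), Rpl31-ps8 at -4.62 (adjusted p = 0.0013) and Rpl31 at 1.5 (adjusted p = 0.098), Aldoart1 at -4.09 (adjusted p = 0.0093) and Aldoa at -0.42 (adjusted p = 0.142), and Tpt1-ps3 at -1.9 (adjusted p = 0.0029) and Tpt1 at -0.19 (adjusted p = 0.879). Reads of such near-identical copies can be split between copy and parent by the counting, so these values are uncertain.

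Genes outside the naming rule that were also called after GC correction included Spon2, a matrix protein, at -3.85 (adjusted p = 0.0017), Wee1, the kinase that holds cells before mitosis, at 1.48 (adjusted p = 0.0074), and Nr3c2, the mineralocorticoid receptor, at 1.4 (adjusted p = 0.006).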
